A study of Mus musculus with 212 samples.

Results

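Calponin 1 (gene Cnn1), Calponin 2 (Cnn2), Sm22A and Myh11 are the smooth muscle and calponin genes of a microfluidic quantitative PCR panel that was run on single cardiovascular cells of the mouse. They were taken by assay name, which gave 4 of the 33 genes measured with 42 assays. The study compared cells from embryos and hearts with cells that differentiated in culture from embryonic stem (ES) cells. The sets used here were 5 SMC, 5 CM, 5 CPC, 5 FB, 5 EDC and 5 ES reference cells, 6 cells each of D5, D6, D7 and D8 and 10 cells each of D23 and D29 from culture, 6 cells each of E7.5, E8.5, E9.5 and E10.5 and 66 further E10.5 cells from a large table, and 10 adult atrial, 5 neonatal atrial, 10 adult ventricular and 5 neonatal ventricular heart cells. The labels give no genotype, strain or agent for any set. The reference names are read here as smooth muscle cells (SMC), cardiomyocytes (CM), cardiac progenitor cells (CPC), fibroblasts (FB), endothelial cells (EDC) and ES cells, and each D number as a day of culture.

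All 4 genes act on the actin and myosin filaments that give smooth muscle its force. Cnn1 encodes basic calponin and Sm22A encodes transgelin, which bind actin in differentiated smooth muscle and are also known from the early embryonic heart tube. Cnn2 encodes neutral calponin, an actin-binding protein found in many cell types outside muscle, and Myh11 encodes the myosin heavy chain of smooth muscle, the most restricted marker of that lineage. Cardiac muscle uses its own myosins, troponins and alpha-actinin, so a cell with troponin T (Tnnt2) and alpha-actinin (Actn2) signal is called troponin-positive in what follows.

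Many smooth muscle genes carry a CArG box, the binding sequence of serum response factor, in their control regions. RefSeq promoter windows of GRCm38.p6, from 250 bases before to 50 bases after the start site, were at hand for 2 of the 4 genes. They are the windows of the calponins, which differed in breadth: Cnn1 was undetected in 6 of 21 sets, and Cnn2 was detected in some cells of every set. Both are printed 5′ to 3′ on the plus strand, and capitals mark each match on either strand to the CArG box or to the E-box CANNTG.
Cnn1, chr9:22099003-22099302: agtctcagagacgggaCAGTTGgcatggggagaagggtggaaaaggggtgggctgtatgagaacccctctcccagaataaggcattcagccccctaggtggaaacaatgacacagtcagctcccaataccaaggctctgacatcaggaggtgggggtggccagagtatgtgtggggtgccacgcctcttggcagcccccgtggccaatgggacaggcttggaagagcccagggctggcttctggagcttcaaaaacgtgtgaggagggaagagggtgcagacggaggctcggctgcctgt
Cnn2, chr10:79988350-79988649: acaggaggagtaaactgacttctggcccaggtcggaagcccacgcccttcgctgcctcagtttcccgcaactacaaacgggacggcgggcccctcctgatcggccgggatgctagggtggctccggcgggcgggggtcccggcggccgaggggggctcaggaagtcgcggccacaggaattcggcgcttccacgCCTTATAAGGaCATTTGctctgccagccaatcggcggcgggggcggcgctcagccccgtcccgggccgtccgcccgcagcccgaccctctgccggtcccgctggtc
The Cnn1 window held 1 E-box match, CAGTTG, at -234 from the start site, and no CArG box match. The Cnn2 window held the CArG box match CCTTATAAGG at -56 and the E-box match CATTTG at -45. Among 32851 RefSeq promoter windows of this length, 1.63% held a CArG box match and 72.31% an E-box match. These matches are letters in a window and were not tested for any role in the values below. In the same annotation Cnn1 lies on chromosome 9 from 22099221 to 22109221, Cnn2 on chromosome 10 from 79988600 to 79995400, Tagln on chromosome 9 from 45929628 to 45936058 and Myh11 on chromosome 16 from 14194527 to 14292188. Where the assays lie within these genes is not stated in the sources used here.

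The authors deposited quantification cycles (Ct), with 25 standing for no signal. Expression is given as 25 minus Ct, so a value counts cycles above the detection limit, 0 means not detected and, if each PCR cycle doubles the product, 1 cycle equals a log2 difference of 1. Levels are compared only within an assay, since assays differ in efficiency. The labels tie no cell to an animal or culture dish, so each set is 1 sample: the SD given is the spread between its cells, intervals are exact (Clopper-Pearson) 95% intervals for counting error only, and no difference could be tested. A difference of 1 cycle or more is counted as higher or lower. The titles of the D5 to D8, D23 to D29 and E7.5 to E10.5 samples name other origins or stages than their tables, so sets are called by the names inside the tables. Of 200 cells, 8 repeat another cell in every value, 6 of them E10.5 cells and 2 of them CM cells that also stand as D29 cells, which leaves 192 distinct cells. None of the 4 genes gave signal in the 6 negative controls.

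The positive control read the same in the reference, D5 to D8 and E7.5 to E10.5 tables, where it gave 14.19 cycles for Cnn1, 13.37 for Cnn2, 15.32 for Sm22A and 14.59 for Myh11. In the D23 to D29 table it gave 15.09 cycles for Cnn1, 17.26 for Cnn2, 16.44 for Sm22A and 15.42 for Myh11, each higher. For the housekeeping gene Actb it was lower there, at 18.20 cycles against 18.83 cycles in the reference, D5 to D8 and E7.5 to E10.5 tables. The control of that table was therefore not higher for every assay. The large E10.5 table was used without a control. In both heart tables, atrial and ventricular, a total of 40 of 42 control values stand 1 assay name away from where they stand elsewhere. A matching move of the cells' values would turn the Cnn1 values there into Sm22A values and the Cnn2 values into Cnn1 values. It would also turn the Sm22A values into Myh11 values and give the Myh11 values to another assay. The cells themselves went with the names as given: over 8 pairs of assays of the same gene in the atrial table and 7 in the ventricular table, the mean absolute difference within a pair was 1.47 and 1.57 cycles as given, and 7.30 and 6.04 cycles with the names moved.

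The SMC cells carried all 4 genes in all 5 cells, and Myh11 set them apart from every other set. Their Myh11 levels were 10.69, 12.12, 11.90, 11.51 and 12.53 cycles, against 2 detections in the 25 other reference cells. Their Cnn1 levels were 8.80, 10.18, 11.26, 9.80 and 10.38 cycles, against 3 detections in the 25 others. Myh11 and Cnn1 were thus present in every smooth muscle reference cell and rare in the others. The Sm22A levels of the SMC cells were 10.26, 12.64, 12.29, 11.35 and 13.01 cycles, against a lowest of 0, a median of 1.61 and a highest of 12.67 cycles in the 25 other reference cells. Their Cnn2 levels were 7.62, 8.56, 8.69, 7.24 and 8.56 cycles, against a lowest of 0, a median of 6.25 and a highest of 10.57 cycles in the others. Only Myh11 separated the SMC cells from all 25 others. For Cnn1 and Sm22A 1 or more CPC cells lay above the lowest SMC cell, the highest of them at 9.53 and 12.67 cycles, and for Cnn2 CPC cells and an FB cell of 8.55 cycles did.

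The mean differences, SMC minus the other reference cells, were 11.46 cycles for Myh11, 9.15 for Cnn1, 8.70 for Sm22A and 2.76 for Cnn2. All 4 genes were at least 1 cycle higher in SMC cells, while 23.8% of the 42 assays were. Their median difference was 8.93 cycles, against -0.73 cycles over all assays, and the housekeeping gene Actb, beta-actin, was 1.06 cycles higher. Over detecting cells alone the Cnn1 difference was 2.35 cycles, since the 3 detecting cells were CPC cells of 5.34 to 9.53 cycles. Of 10 contractile cardiomyocyte assays 0 were higher in SMC cells and 7 lower, and of 4 endothelial assays 0 were higher and 4 lower. Of 3 mesenchymal assays 1 was higher and 0 lower, and of 12 cardiac transcription factor assays 3 were higher and 4 lower. Vim, an intermediate filament gene of mesenchymal cells, was 4.13 cycles higher and the transcription factor assays Mef2C-1 and Mef2C-2 were 4.92 and 3.01 cycles higher, each more than the 2.76 cycles of Cnn2. The SMC cells were not free of myocyte signal, with Actn2 in 3 of 5 cells and Tnnt2-1, an assay of troponin T, at 7.41 cycles in 1 cell. Against the FB cells, SMC cells were higher by 10.88 cycles for Myh11, 10.08 for Cnn1, 8.92 for Sm22A and 1.77 for Cnn2.

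**Figure D1:**
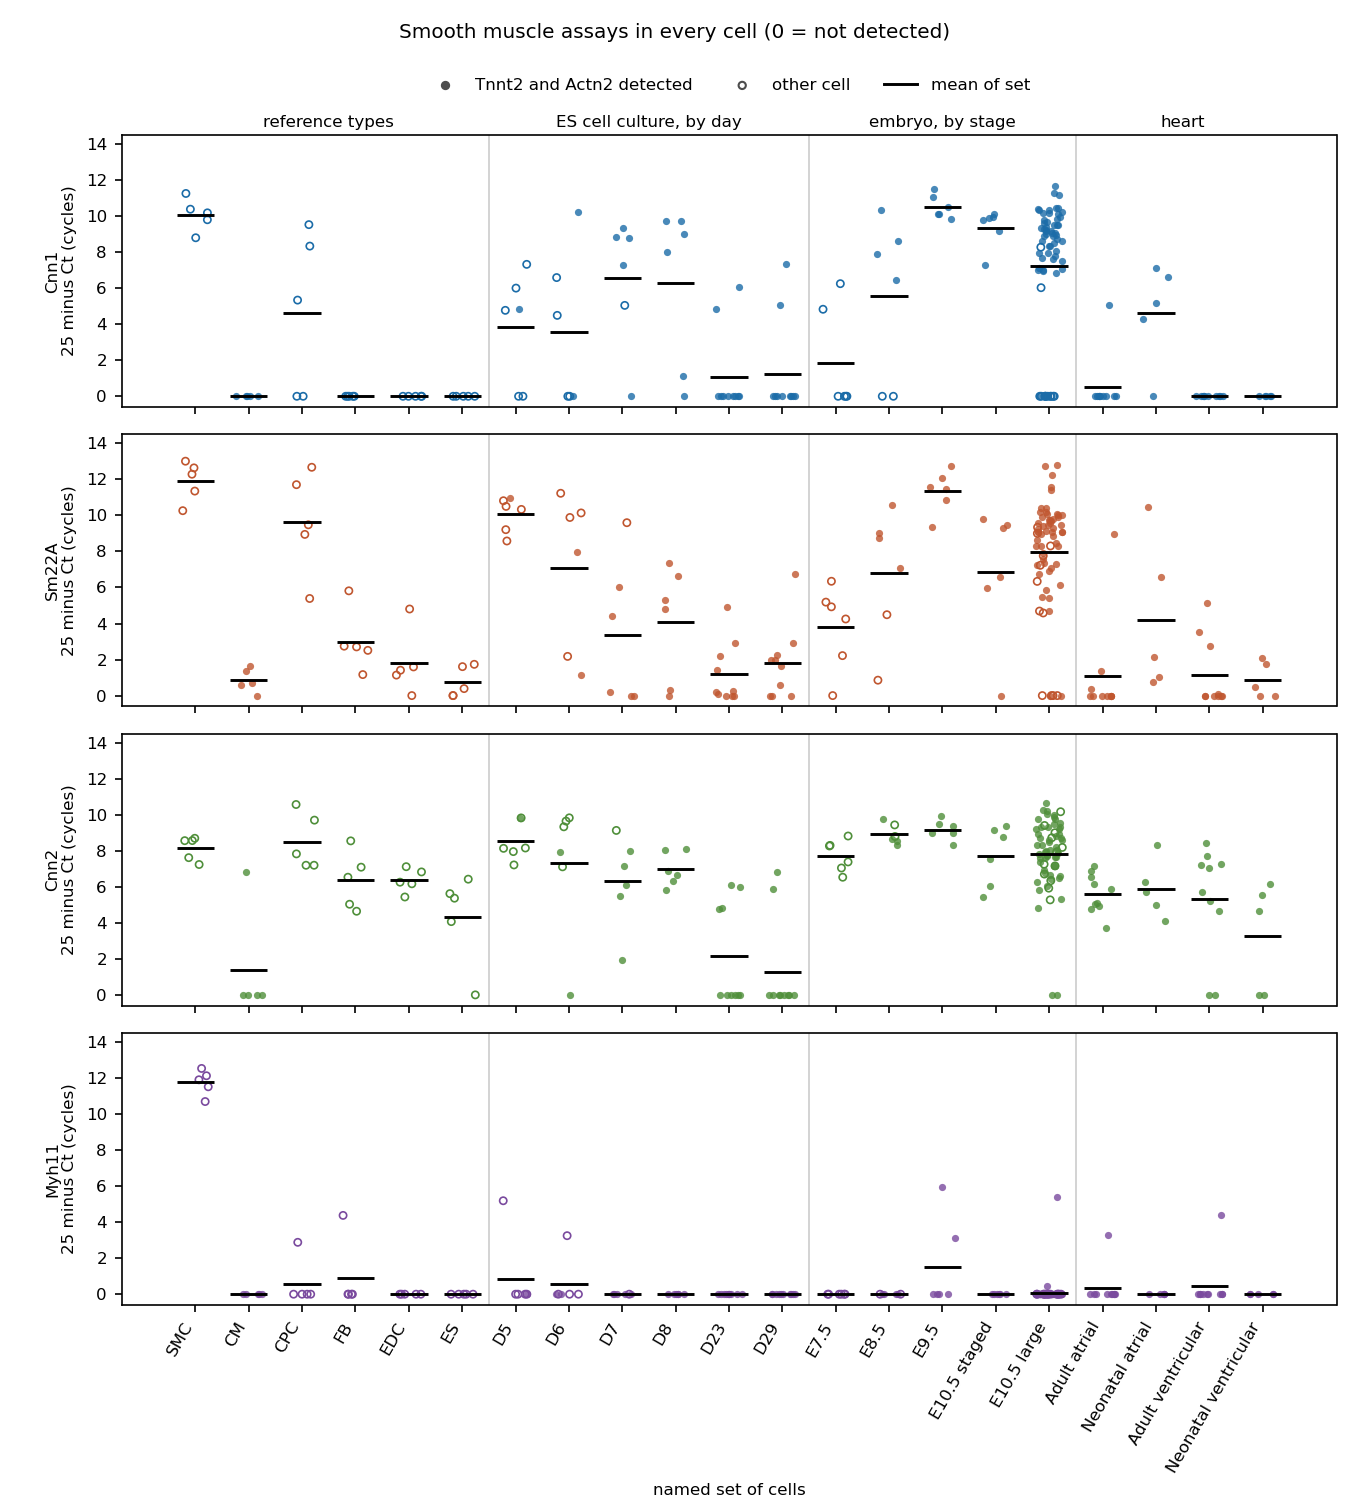
Each point is 1 cell, the y axis is 25 minus Ct in cycles for 1 gene per panel, the x axis is the named set, and the black line is the mean of the set. Filled points are troponin-positive cells. Myh11 stands at 10.69 to 12.53 cycles in the 5 SMC cells and at 5.93 cycles or less elsewhere, while Cnn1, Sm22A and Cnn2 reach the SMC levels in E9.5 and E10.5 cells.

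Ordered by mean level over the 21 sets, Cnn1 and Cnn2 were highest not in SMC cells but in E9.5 cells. Cnn1 averaged 10.52 ± 0.64 cycles in E9.5 cells (SD, n = 6), followed by 10.08 ± 0.90 in SMC cells (SD, n = 5), 9.36 ± 1.07 in the 6 staged E10.5 cells and 7.20 ± 3.77 in the 66 further E10.5 cells. It then ran through D7 (6.55 ± 3.57), D8 (6.27 ± 4.47), E8.5 (5.54 ± 4.47), neonatal atrial (4.64 ± 2.83), CPC (4.64 ± 4.50), D5 (3.82 ± 3.10), D6 (3.55 ± 4.30) and E7.5 cells (1.85 ± 2.90). The low end held D29 (1.24 ± 2.67), D23 (1.09 ± 2.31) and adult atrial cells (0.51 ± 1.60). CM, FB, EDC, ES, neonatal ventricular and adult ventricular cells were at 0 in every cell. No pair of neighbours in this order lay further apart than the larger SD of the pair.

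Sm22A was ordered much like Cnn1 at the top, with 11.91 ± 1.11 cycles in SMC cells (SD, n = 5) and 11.35 ± 1.17 in E9.5 cells (SD, n = 6). The next sets were D5 (10.07 ± 0.96) and CPC (9.64 ± 2.83), where Cnn1 was lower in rank, then the 66 E10.5 cells (7.94 ± 3.09), D6 (7.08 ± 4.35), staged E10.5 (6.86 ± 3.73) and E8.5 cells (6.79 ± 3.57). Neonatal atrial (4.19 ± 4.22), D8 (4.06 ± 3.17), E7.5 (3.82 ± 2.32), D7 (3.38 ± 3.99) and FB cells (2.99 ± 1.71) lay between. The 8 remaining sets averaged from 0.75 ± 0.86 cycles in ES cells to 1.81 ± 2.03 cycles in D29 cells, and signals there were mostly within 2 cycles of the limit. Only the step between E9.5 and D5, 1.28 cycles, exceeded the larger SD among the 20 neighbouring pairs.

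Cnn2 was the broadest of the 4, with signal in 167 of 192 distinct cells, against 156 for Sm22A, 105 for Cnn1 and 15 for Myh11. Its means ran from 9.17 ± 0.55 cycles in E9.5 cells (SD, n = 6) and 8.92 ± 0.57 in E8.5 cells (SD, n = 6) through 8.52 ± 1.07 in D5, 8.5 ± 1.55 in CPC and 8.13 ± 0.66 in SMC cells. The 66 E10.5 (7.82 ± 1.95), staged E10.5 (7.73 ± 1.67), E7.5 (7.72 ± 0.87), D6 (7.30 ± 3.73), D8 (6.97 ± 0.92), FB (6.37 ± 1.59), EDC (6.36 ± 0.65) and D7 cells (6.31 ± 2.5) followed. Heart and ES cells lay below these, from 5.88 ± 1.60 cycles in neonatal atrial, 5.62 ± 1.09 in adult atrial and 5.32 ± 3.04 in adult ventricular cells to 4.29 ± 2.55 in ES and 3.27 ± 3.03 in neonatal ventricular cells. D23 (2.17 ± 2.83), CM (1.37 ± 3.06) and D29 cells (1.27 ± 2.69) were lowest. No neighbouring pair differed by more than the larger SD. For Myh11 the step below SMC cells, 10.24 cycles down to 1.51 ± 2.5 cycles in E9.5 cells (SD, n = 6), was the only one of 20 that exceeded it, and 12 sets were at 0 in every cell.

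Among the reference cells, CM cells largely lacked the 3 genes that CPC cells carried. CM cells had Sm22A levels of 0.61, 1.63, 1.37, 0 and 0.69 cycles, against 12.67, 9.48, 8.95, 11.70 and 5.39 cycles in CPC cells. Cnn1 was detected in 0 of 5 CM cells, against 9.53, 5.34 and 8.33 cycles in 3 of 5 CPC cells. Cnn2 was detected in 1 of 5 CM cells, at 6.84 cycles, against 10.57, 7.83, 7.19, 9.70 and 7.19 cycles in CPC cells. The groups did not overlap for Sm22A or Cnn2, nor for Actb, at 5.93 to 7.28 cycles in CM and 10.58 to 12.25 cycles in CPC cells. How many of all assays were apart in this way was not counted. The differences, CM minus CPC, were -8.78 cycles for Sm22A, -7.13 for Cnn2, -4.64 for Cnn1 and -0.58 for Myh11. So 3 of the 4 genes were at least 1 cycle lower in CM cells, as were 40.5% of all assays. Actb differed by -5.23 cycles as well, and its part in these differences was not tested. On a scale centred on Actb the Sm22A difference was -4.64 cycles.

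In culture, Sm22A was lower and Cnn1 higher at D8 than at D5. Sm22A had a lowest level of 8.58, a median of 10.42 and a highest of 10.97 cycles in the 6 D5 cells. In D6 cells these were 1.13, 8.91 and 11.23 cycles, in D7 cells 0, 2.32 and 9.59 cycles, and in D8 cells 0, 5.05 and 7.37 cycles. All 6 D8 cells thus lay below the lowest D5 cell, while D6 and D7 cells spanned both ranges. Actb was apart in the same way, at 4.80 to 9.16 cycles at D8 and 12.04 to 13.31 at D5, and other assays were not counted. Cnn1 had a lowest of 0, a median of 4.80 and a highest of 7.32 cycles at D5. In D6 cells these were 0, 2.25 and 10.23 cycles, in D7 cells 0, 8.02 and 9.35 cycles, and in D8 cells 0, 8.52 and 9.75 cycles. Of the D8 cells, 4 were above every D5 cell and 2 were at 0 and 1.15 cycles.

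The Sm22A difference, D8 minus D5, was -6.0 cycles and that of Cnn1 was 2.45 cycles. Without the D8 cell that lacked Cnn1 its difference was 3.71 cycles. Cnn2 differed by -1.55 cycles, with 5.80 to 8.08 cycles at D8 against 7.21 to 9.82 cycles at D5, and Myh11 by -0.86 cycles, which came from a single D5 cell of 5.19 cycles. Of the 4 genes 2 were at least 1 cycle lower at D8 and 1 was higher, while 26.2% of all assays were lower and 50% were higher. Over the same days all 10 contractile cardiomyocyte assays were higher at D8 and all 3 mesenchymal assays lower. Actb was 7.09 ± 1.59 cycles at D8, against 12.66 ± 0.46 cycles at D5 (SD, n = 6 each), a difference of -5.57 cycles whose part was not tested. Centred on Actb, the D8 minus D5 differences were 6.52 cycles for Cnn1, -1.29 for Sm22A and 4.02 for Cnn2, so Cnn2 changed direction. Centred on the median detected assay they were 2.57, -5.99 and -1.30 cycles.

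The split by troponin showed where Cnn1 stood within these days. Of the 6 D5 cells 1 was troponin-positive, of the 6 D6 cells 2, of the D7 cells 5 and of the D8 cells 6. The 13 troponin-positive cells of D6 to D8 detected Cnn1 in 10 cells, or 76.9% (interval 46.2 to 95%), Cnn2 in 12, Sm22A in 10 and Myh11 in 0. Cnn1 and Sm22A stood together in 8 of the 13 cells, Sm22A was above a limit stricter by 2 cycles in 7, and 0 of 13 for Myh11 allows a share of up to 24.7%. The D6 cell with the strongest myocyte signal, Tnnt2-1 at 12.40 and Actn2 at 9.86 cycles, had the highest Cnn1 level of D5 to D8, 10.23 cycles. The other troponin-positive D6 cell, with Tnnt2-1 at 4.59 and Actn2 at 3.97 cycles, had no Cnn1 and no Cnn2 signal. Cnn1 was also present without Actn2, as in 3 of the 5 other D5 cells, at 4.77 to 7.32 cycles.

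The D23 to D29 cells were all troponin-positive and mostly lacked the calponins. Cnn1 was detected in 2 of 10 D23 cells, at 6.05 and 4.83 cycles, and in 2 of 10 D29 cells, at 7.37 and 5.04 cycles. Cnn2 was detected in 4 of 10 D23 cells and 2 of 10 D29 cells, at 4.78 to 6.84 cycles where present. Sm22A was detected in 7 of 10 cells of each day, but at a limit stricter by 2 cycles in 3 of 10 of each. Its highest level was 6.76 cycles, in a D29 cell that also had the atrial gene Sln at 12.13 cycles and no signal for the ventricular light chain Myl2.

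Set against D8, the 20 cells of D23 and D29 differed by -5.25 cycles for Cnn2, -5.11 for Cnn1 and -2.56 for Sm22A, and Myh11 was at 0 in both. So 3 of the 4 genes were at least 1 cycle lower, with 45.2% of all assays, and the median difference of the 4 was -3.84 cycles against -0.69 cycles over all assays. Among detecting cells only, the difference was -1.23 cycles for Cnn2, -1.71 for Cnn1 and -2.73 for Sm22A, so the calponins were mainly detected in fewer cells. Relative to the positive control of each table, the differences were -9.14 cycles for Cnn2, -6.0 for Cnn1 and -3.68 for Sm22A. The 2 D29 cells that also stand in the reference table hold the same values there, although the controls of the tables differ. Actb differed by -1.36 cycles, and all 3 mesenchymal assays were lower, while of 10 contractile assays 1 was higher and 2 were lower. The Myh11 assay of the late table carries another number and could not be linked to the other tables by the control, so its 0 of 20 cells may not be comparable. Between D29 and D23 the differences were 0.15 cycles for Cnn1, -0.89 for Cnn2 and 0.61 for Sm22A.

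**Figure D2:**
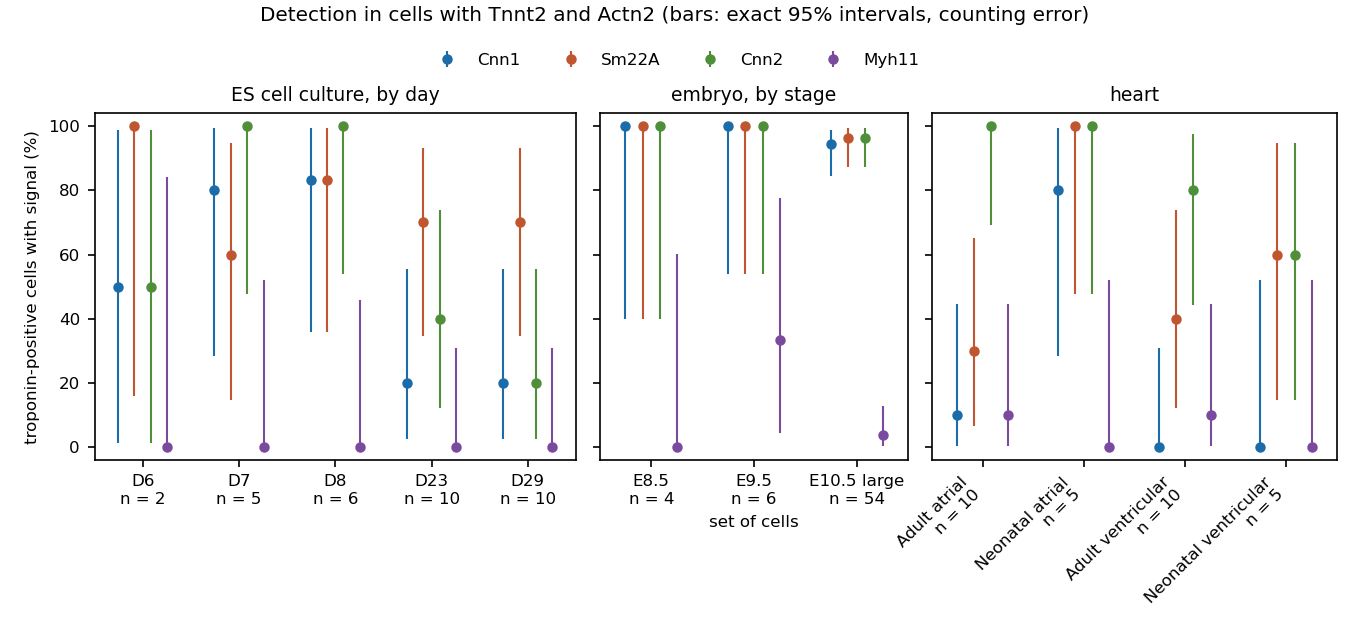
The y axis is the percentage of troponin-positive cells with signal for each gene, the x axis the set, and bars are exact 95% intervals for counting error. Cnn1 was detected in 10 of 13 troponin-positive cells of D6 to D8 and in 67 of 70 of E8.5 to E10.5, against 4 of 20 at D23 and D29 and 0 of 15 ventricular cells. The 70 cells include the 6 staged E10.5 cells, which are not drawn and all detected Cnn1.

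In embryos, Cnn1 and Sm22A were highest at E9.5. Cnn1 was detected in 2 of 6 E7.5 cells, at 4.83 and 6.25 cycles, and in 4 of 6 E8.5 cells, at 6.43 to 10.34 cycles. All 6 E9.5 cells had it, with a lowest of 9.84, a median of 10.31 and a highest of 11.53 cycles, and so did the 6 staged E10.5 cells, with 7.28, 9.82 and 10.11 cycles. The 4 E8.5 cells with Cnn1 were the 4 troponin-positive ones, and the other 2 carried the endothelial cadherin Cdh5 at 12.12 and 11.43 cycles. Sm22A had a lowest of 0, a median of 4.59 and a highest of 6.34 cycles at E7.5, and 0.86, 7.91 and 10.60 cycles at E8.5. At E9.5 these were 9.34, 11.54 and 12.74 cycles, and in staged E10.5 cells 0, 7.95 and 9.79 cycles. Every E9.5 cell lay above every E7.5 cell for both genes. The same held for Tnnt2-1, at 12.12 to 13.89 cycles in E9.5 cells and 0 in all E7.5 cells, and other assays were not counted.

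Cnn2 varied less, with medians of 7.82 cycles at E7.5, 8.73 at E8.5, 9.20 at E9.5 and 8.15 in staged E10.5 cells. It was detected in all 24 cells of these stages, whether troponin-positive or not. Myh11 was detected in 2 of 6 E9.5 cells, at 3.12 and 5.93 cycles, and in 0 of the 18 other cells of that table. At E8.5 against E7.5, 3 of the 4 genes were at least 1 cycle higher, by 3.69 cycles for Cnn1, 2.97 for Sm22A and 1.20 for Cnn2, with 52.4% of all assays. The Cnn2 value was as low as 0.96 cycles when a single cell was left out, which leaves 2 of 4. At E9.5 against E8.5, Cnn1 was 4.98, Sm22A 4.56 and Myh11 1.51 cycles higher, so again 3 of 4 genes, with 54.8% of all assays. The Myh11 value rests on the E9.5 cell of 5.93 cycles, and it was 0.62 cycles without that cell, which leaves 2 of 4. At a limit of Ct 23 it was 0.84 cycles, with Myh11 still detected in 2 E9.5 cells. That limit makes every detected level up to 2 cycles smaller by construction. All 10 contractile assays were higher at both steps.

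The 66 E10.5 cells of the large table lay below the E9.5 cells for all 4 genes, with differences of -3.32 cycles for Cnn1, -3.40 for Sm22A, -1.36 for Cnn2 and -1.42 for Myh11, as did 57.1% of all assays. Without the same E9.5 cell the Myh11 difference was -0.53 cycles. All 10 contractile assays were lower in the 66 cells than at E9.5 too, with a median difference of -1.91 cycles. Restricted to the 54 troponin-positive cells the differences were -1.98 cycles for Cnn1 and -2.70 for Sm22A. Against E7.5, the 66 cells were higher by 5.36 cycles for Cnn1 and 4.12 for Sm22A and differed by 0.10 for Cnn2 and 0.09 for Myh11, so 2 of the 4 genes were at least 1 cycle higher, with 54.8% of all assays. Actb differed by -3.13 cycles between E10.5 and E7.5, and its part was not tested. Centred on it, the differences were 8.35 cycles for Cnn1, 7.26 for Sm22A and 3.01 for Cnn2, and centred on the median detected assay Cnn2 was -1.48 cycles.

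Within the 66 E10.5 cells, Cnn1 went with the myocyte genes and Cnn2 did not. The 54 troponin-positive cells had Cnn1 levels with a lowest of 0, a median of 9.04 and a highest of 11.66 cycles, and 51 of them detected it (94.4%, interval 84.6 to 98.8%). The 5 cells with neither Tnnt2 nor Actn2 had Cnn1 in 1 cell, at 8.27 cycles. Sm22A had a lowest of 0, a median of 9.10 and a highest of 12.79 cycles in the troponin-positive cells, with 52 of 54 detecting, against 2 of 5 cells with neither, at 4.69 and 7.76 cycles. Cnn2 was detected in 52 of 54 troponin-positive cells, with a mean of 7.85 ± 2.04 cycles (SD, n = 54), and in all 5 cells with neither, with a mean of 7.32 ± 1.32 cycles (SD, n = 5). The ranges of all 3 genes overlapped, since single cells of each kind were at 0 or at high levels.

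The differences, troponin-positive minus neither, were 6.89 cycles for Cnn1, 6.16 for Sm22A, 0.53 for Cnn2 and 0.11 for Myh11. Thus 2 of the 4 genes were at least 1 cycle higher in troponin-positive cells, with 52.4% of all assays. The 5 cells with neither all detected Cdh5, at 10.11 to 11.20 cycles, and had Actb at 10.16 ± 0.44 cycles (SD, n = 5), against 7.88 ± 1.77 cycles in troponin-positive cells (SD, n = 54). All 10 contractile assays were higher in the troponin-positive cells, and all 4 endothelial and all 3 mesenchymal assays were lower. The Actn2 and Tnnt2 assays among the 10 define these classes, so their differences were fixed by the split and also count in the 52.4%. Centred on Actb the differences were 10.06 cycles for Cnn1, 8.95 for Sm22A and 2.56 for Cnn2, and centred on the median detected assay Cnn2 was -0.83 cycles.

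Between these classes stood 7 cells with weak Tnnt2 and no Actn2, which separated Sm22A from Cnn1. They detected Sm22A in 6 of 7 cells, with a median of 7.23 cycles, Cnn2 in 7 of 7 and Cnn1 in 1 of 7, at 6.03 cycles. Their Tnnt2-1 levels were 4.82 to 7.76 cycles, and 4 of 7 also detected Cdh5. Of the 54 troponin-positive cells, the 49 with Actn2 above 8 cycles all had Cnn1, at 6.85 to 11.66 cycles, and the 5 with weaker Actn2 had it in 2 cells, at 7.0 and 7.07 cycles. Those 5 cells had Sm22A in 4. The 3 troponin-positive cells without Cnn1 had Tnnt2-1 at 6.15 to 8.27 cycles, Actb at 9.45 to 12.27 cycles and the matrix gene Fn1, fibronectin, at 8.95 to 10.95 cycles. In 1 of these 3 cells, with Actn2 at 1.12 cycles, the endothelial genes Cdh5, Vwf and Pecam1 stood at 10.30, 7.39 and 4.66 cycles. The other 2, with Actn2 at 5.79 and 5.81 cycles, carried the mesenchymal gene Pdgfra at 8.34 and 7.22 cycles. All 5 cells of weaker Actn2 detected Cnn2, at 6.50 to 8.23 cycles.

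**Figure D3:**
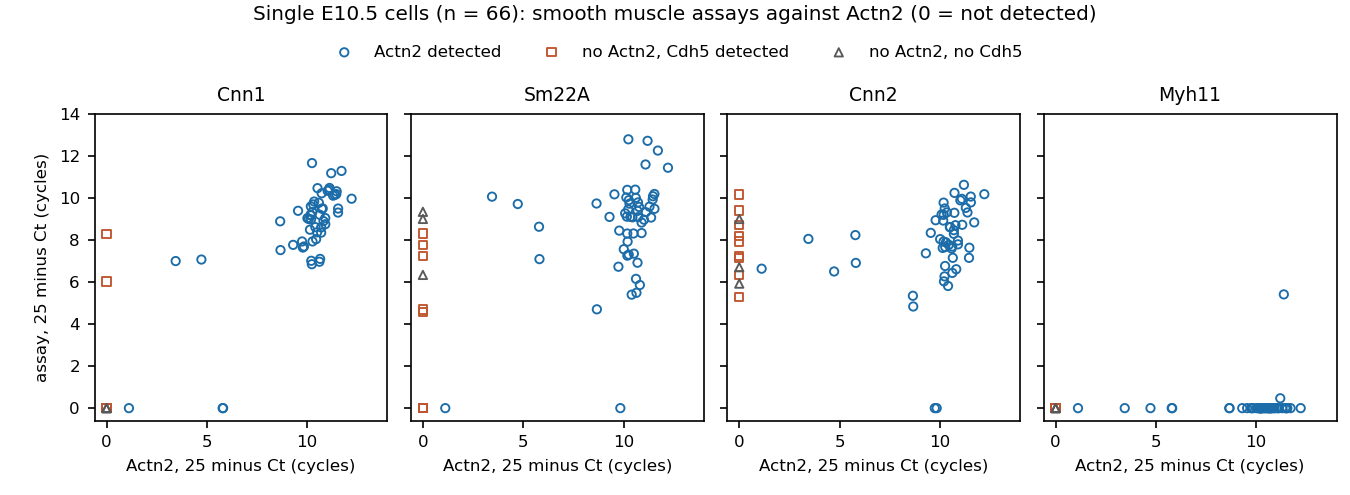
Each point is 1 of 66 E10.5 cells, the x axis is Actn2 and the y axis 1 gene per panel, both as 25 minus Ct in cycles, and symbols mark cells with Actn2, with Cdh5 but no Actn2, and with neither of these. Cnn1 was present in all 49 cells with Actn2 above 8 cycles and in 2 of 12 without Actn2, whereas Cnn2 was present in all 12.

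Among cells in which both genes were detected, levels still went together to a moderate degree. Over the 54 troponin-positive E10.5 cells, Pearson's r was 0.58 between Cnn1 and Cnn2 (49 cells with both), 0.47 between Cnn1 and Sm22A (50 cells) and 0.53 between Cnn2 and Sm22A (51 cells). In the same cells r with Actb was 0.22 for Cnn1, 0.44 for Cnn2 and 0.42 for Sm22A. These are descriptions over cells of 1 table and carry no test. Values of the same cell share its RNA content, and cells may or may not share chip and reagents. Cnn1 with Actn2 gave 0.53 on this basis (51 cells). Counting undetected cells as 0 gives other values, such as 0.32 for Cnn1 with Cnn2 over the 54 cells and 0.22 over all 66. On that basis, over all 66 cells, the assays most like Cnn1 were Nkx2.5-1 (r = 0.89), a cardiac transcription factor, Actn2 (0.88) and Tnni3-2 (0.86), an assay of cardiac troponin I. Those most like Sm22A were Cnn1 (0.63), Tnnt2-1 (0.63) and Tnnt2-2 (0.58). Those most like Cnn2 were Vcam1 (0.48), an adhesion molecule, Gata4-2 (0.46) and Mef2C-1 (0.45), and for Myh11, with 2 detecting cells, the highest r was 0.28.

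Over the means of the 21 sets the picture differed. Cnn1 was most like Sm22A (r = 0.82), Mef2C-1 (0.69) and Kit-2 (0.68). Sm22A was most like Cnn1 (0.82), Cnn2 (0.79) and Vim (0.78), and Cnn2 was most like Sm22A (0.79), Vim (0.69) and Fn1 (0.68). Myh11 was most like Sm22A (0.52), Cnn1 (0.44) and Vim (0.36), with the SMC set as its only high point.

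In hearts, with the assay names as given, Cnn1 marked neonatal atrial cells. Of the 10 adult atrial cells 1 detected it, at 5.05 cycles, against levels of 0, 5.17, 4.31, 7.11 and 6.62 cycles in the 5 neonatal atrial cells. It was detected in 0 of 10 adult and 0 of 5 neonatal ventricular cells, together 0 of 15 (interval 0 to 21.8%). Sm22A was detected in 3 of 10 adult atrial cells, with a highest of 8.97 cycles, and was at 2.14, 1.0, 0.77, 6.56 and 10.47 cycles in neonatal atrial cells. In ventricles it was detected in 4 of 10 adult cells, with a highest of 5.12 cycles, and was at 0, 0.45, 2.09, 0 and 1.77 cycles in neonatal cells. Adult and neonatal cells overlapped in both chambers for Sm22A.

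Cnn2 remained present in most heart cells. Adult atrial cells had it in 10 of 10, with a lowest of 3.71, a median of 5.51 and a highest of 7.14 cycles, and neonatal atrial cells in 5 of 5, at 6.25, 4.08, 4.99, 5.72 and 8.34 cycles. Adult ventricular cells had it in 8 of 10, with a lowest of 0, a median of 6.37 and a highest of 8.42 cycles, and neonatal ventricular cells in 3 of 5, at 5.52, 6.15 and 4.67 cycles. Myh11 was detected in 1 adult atrial cell, at 3.27 cycles, 1 adult ventricular cell, at 4.41 cycles, and in no neonatal cell. That adult ventricular cell was the only one of the 200 cells without Actb signal.

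Neonatal atrial minus neonatal ventricular cells differed by 4.64 cycles for Cnn1, 3.33 for Sm22A and 2.61 for Cnn2, so atrial cells exceeded ventricular cells by 1 cycle or more for 3 of the 4 genes, as for 35.7% of all assays. Adult minus neonatal atrial cells differed by -4.14 cycles for Cnn1, -3.12 for Sm22A and -0.26 for Cnn2, so 2 of the 4 were at least 1 cycle lower in adults, again with 35.7% of all assays. Adult minus neonatal ventricular cells differed by 2.05 cycles for Cnn2 and by 0 for Cnn1, so 1 of the 4 was at least 1 cycle higher, with 31% of all assays. Centred on the median detected assay the Cnn2 value was 0.93 cycles. Over detecting cells alone, Cnn2 in neonatal atrial minus ventricular cells was 0.43 cycles and Sm22A in adult minus neonatal atrial cells was -0.62 cycles. Between adult atrial and adult ventricular cells, differences of the 4 genes lay between -0.11 and 0.51 cycles. The atrial values lean on few cells. Of the 5 neonatal atrial cells, 2 had Actb above 9 cycles, and 1 of these had Sm22A at 10.47 cycles beside Vim at 13.80, Fn1 at 11.43 and the mesodermal receptor gene Pdgfra at 9.19 cycles. Without that cell the Sm22A difference was -1.55 cycles for adult minus neonatal atrial and 1.76 cycles for neonatal atrial minus ventricular, and without both cells the Cnn1 values were -5.03 and 5.53 cycles. The adult atrial cell with Cnn1 also had the highest Sm22A of its set, 8.97 cycles, with no signal for Vim, Fn1 or Pdgfra.

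Neonatal heart cells stood well below the troponin-positive E10.5 cells. Neonatal minus E10.5 differences were -6.22 cycles for Cnn1, -6.12 for Sm22A and -3.28 for Cnn2, so 3 of the 4 genes were at least 1 cycle lower, against 26.2% of all assays. The median of the 4 was -4.70 cycles, against -0.05 cycles over all assays, and Actb differed by -2.01 cycles. The chambers differed: for Cnn1 the difference was -3.90 cycles with neonatal atrial cells alone and -8.54 with ventricular cells alone, for Sm22A -4.46 and -7.78, and for Cnn2 -1.98 and -4.58. The ventricular light chain gene Myl2 was detected in 51 of the 54 E10.5 cells. In the 2 groups 4 of 10 neonatal cells and 51 of 54 E10.5 cells detected Cnn1, and among detecting cells the difference was -3.24 cycles. Of 10 contractile assays 6 were higher in neonatal cells and 3 lower. The heart and E10.5 cells stand in separate tables, and the large E10.5 table was used without a control. A shift between tables therefore cannot be told apart from a difference between the cells.

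Myh11 outside the SMC cells was sparse and weak. It was detected in 10 of 187 distinct other cells, or 5.35% (interval 2.59 to 9.61%), at 0.47 to 5.93 cycles, so the lowest SMC cell lay 4.76 cycles above the highest of them. The 10 cells came from 8 sets, and 6 of them were troponin-positive. Of these 10 cells, 7 detected all 4 genes: a CPC cell (Myh11 at 2.88 cycles), a D5 cell (5.19), a D6 cell (3.25), 2 E9.5 cells (3.12 and 5.93) and 2 E10.5 cells (0.47 and 5.41). The D5 cell also carried Cdh5 at 6.23 cycles, and the other 3 were an FB cell (4.37), an adult atrial cell (3.27) and an adult ventricular cell (4.41), all without Cnn1. Cnn1 and Sm22A were detected together in 7 of these 10 cells and in 88 of the 177 others (49.7%), a difference that was not tested.

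Cnn1 was seldom found without Sm22A, while the reverse was common. Among 192 distinct cells, 85 detected Cnn1, Cnn2 and Sm22A without Myh11, and 12 detected all 4, of which 5 were the SMC cells. Cnn1 was found without Sm22A in 5 cells, whereas Sm22A was found without Cnn1 in 56. At a limit of Ct 23 these counts were 9 and 33. Cnn2 was the only gene detected in 22 cells, of which 6 were adult atrial, 5 adult ventricular and 5 were E10.5 cells. None of the 4 was detected in 8 cells, 3 of them D29 cells. These counts depend on the different detection limits of the assays.

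**Figure D4:**
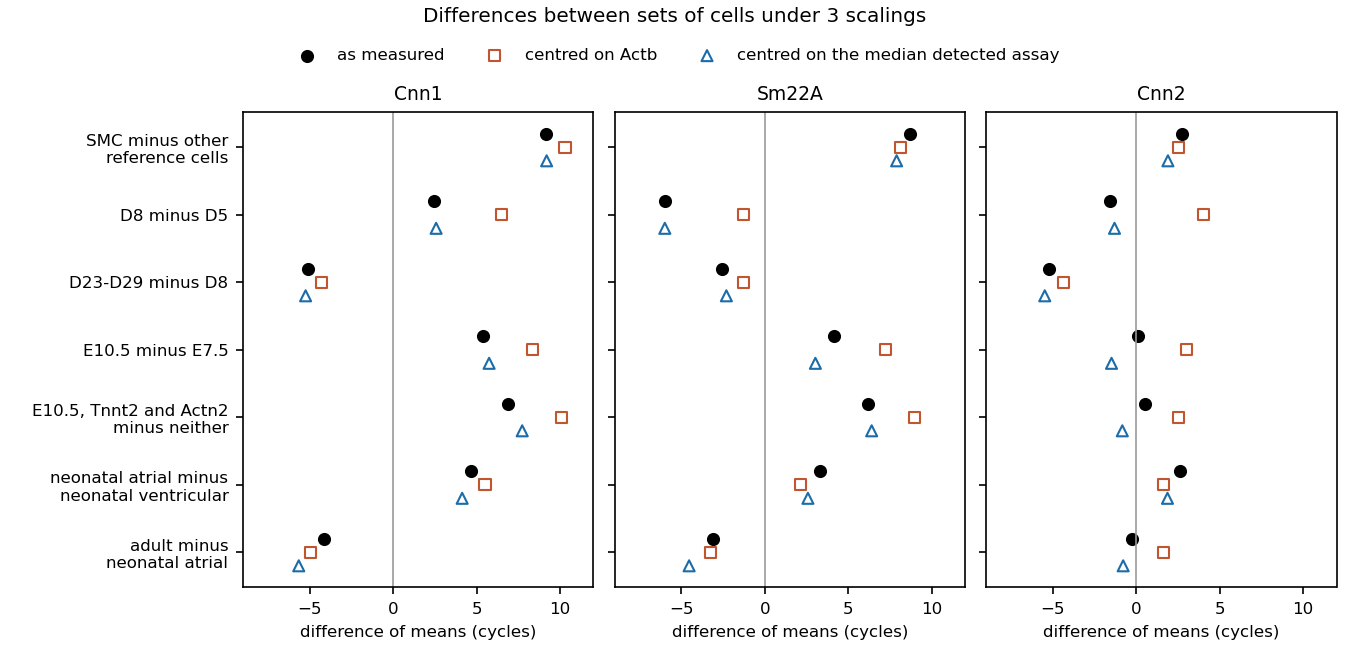
The x axis is the difference of means in cycles for 7 comparisons, with 1 panel per gene, and symbols give the difference as measured, centred on Actb and centred on the median detected assay. Cnn1 and Sm22A kept their side of 0 in all 7 comparisons, while Cnn2 changed side with the scaling between D8 and D5, E10.5 and E7.5, the E10.5 classes, and adult and neonatal atrial cells.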

How the data were processed

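Single cells were sorted, lysed and reverse transcribed, pre-amplified with TaqMan assays and measured on Fluidigm chips, per the labels' protocols. The authors deposited Ct values for 42 assays in 7 tables, a unit with no fixed range: 25 stands for no signal, as the values show, and no correction to a housekeeping gene is recorded in the labels. Neither the Ct threshold nor the cycle number is stated in the sources used here. The 12 control columns were kept apart from the 200 cells.

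Expression was computed as 25 minus Ct with Python 3.11.15, pandas 2.3.3, NumPy 2.4.6 and SciPy 1.17.1. Means over all cells (undetected as 0), the SD between cells and detection shares with exact 95% intervals were taken per named set, and differences of means per comparison were called at 1 cycle. Since cells cannot be assigned to animals or cultures, differences are given without tests. The 5 to 66 distinct cells per set and the detection limit set the precision. A troponin-positive cell detects Actn2 and at least 1 of the Tnnt2 assays.

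The genes, the gene lists and the rules were chosen with earlier results of these data known. The named assays are the 4 genes, for each the 3 assays with the highest Pearson correlation over set means and over the 66 E10.5 cells, Actb, and the members of lists for contractile, mesenchymal, endothelial and transcription factor genes. Sm22A is a synonym of both Tagln and Tagln2 and was read as Tagln. Myh11-1 and Myh11 share a control value and were joined. The alternatives scaled each cell to Actb or to its median detected assay; the others used a limit at Ct 23, detecting cells only, medians, a filter on cells, other troponin rules and leaving out single cells. Added after the data were seen were values relative to the positive control, sets without repeated cells or without 2 neonatal atrial cells of high Actb, other choices of E10.5 cells, and each neonatal chamber alone. The calculation of differences was tested on simulated data.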

Additional observations from a re-analysis of the deposited data

Results flagged for a closer look

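In 12 of 62 groups of 5 to 10 cells with differing values, 1 cell lay apart from the others by Dixon's criterion, and 18 further groups were at 0 in every cell. Chance meets the criterion in about 1 of 20 groups of normally distributed values, which groups with many undetected cells are not. In 8 of the 12 the cell was the only one with signal, so most of these cases restate that a gene was detected once. For Myh11 these single cells were a CPC cell at 2.88, an FB cell at 4.37, a D5 cell at 5.19, a D6 cell at 3.25, an adult atrial cell at 3.27 and an adult ventricular cell at 4.41 cycles, with 0 in the other cells of each set. Cnn2 stood at 6.84 cycles in 1 CM cell, which also stands as a D29 cell, and Cnn1 at 5.05 cycles in 1 adult atrial cell.

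The remaining cases were cells apart from detecting neighbours. The same adult atrial cell had Sm22A at 8.97 cycles, against a next highest of 1.39 cycles. A D29 cell had Sm22A at 6.76 cycles, against a next highest of 2.89 cycles, and carried Sln without Myl2. A D6 cell had Cnn2 at 0, against a next lowest of 7.11 cycles. A staged E10.5 cell had Cnn1 at 7.28 cycles, against a next lowest of 9.17 cycles.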

How the results depend on the processing

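Of 583 recomputed differences between sets, 554 stayed within the spread between cells, 24 moved beyond it and 5 turned the sign of a difference of at least 1 cycle. In all 45 changed sign, in 18 of 76 differences, and 40 of them were of differences under 1 cycle. Of the 45, 18 were of Cnn2, 12 of Sm22A, 10 of Cnn1 and 5 of Myh11. Centring on Actb moved the most: D8 minus D5 became 6.52 cycles for Cnn1, 4.02 for Cnn2 (reversed) and -1.29 for Sm22A, E10.5 minus E7.5 became 3.01 for Cnn2 and 7.26 for Sm22A, E10.5 troponin-positive minus neither became 10.06 for Cnn1 and 2.56 for Cnn2, adult minus neonatal atrial became 1.62 for Cnn2, and SMC minus other reference cells became 12.51 for Myh11. Centring on the median detected assay gave -1.48 cycles for Cnn2 in E10.5 minus E7.5 and -0.064 in SMC minus FB (reversed). A limit at Ct 23 makes every detected level up to 2 cycles smaller by construction. It gave 9.62 cycles for Myh11 in SMC minus other reference cells and left 30% of troponin-positive D23 and of D29 cells with Sm22A. Over detecting cells alone, Cnn1 in SMC minus other reference cells was 2.35 and Cnn2 in D23-D29 minus D8 was -1.23, or -9.14 relative to the positive control. Cnn2 in D6 minus D5 changed sign to 0.25 cycles over detecting cells and to 0.48 cycles by medians, and ranged from -1.72 to 0.25 cycles when single cells were left out, the highest without the D6 cell that lacked Cnn2. In each case the cause was not tested beyond the construction of the alternative. No paired analysis was possible because the labels give no numbers shared between groups and no result comes from a test. Ct ends at 25, so differences against an undetected set are lower limits, and 0 of 5 cells allows a share of up to 52.2%.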
